A study of Homo sapiens with 32 samples.

Results

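The netrins NTN1 and NTN4, the receptors UNC5A, UNC5B, UNC5C and UNC5D, and the paired receptors DCC and NEO1 were chosen by gene name, 8 of the 35587 genes in the deposited expression matrix, and all 8 were measured. They were followed in U2OS, a human osteosarcoma cell line, with 4 p53 genotypes made by CRISPR-Cas9: unedited wild-type cells (WT, labelled p53 WT/WT), cells without p53 (KO, labelled p53 KO), cells with 1 allele carrying the A347D change (HET, labelled p53 WT/A347D) and cells with both alleles carrying it (HOM, labelled p53 A347D/A347D). Cells of every genotype were kept for 24 h with the solvent DMSO or with etoposide at 20 µM (ETO), a drug that traps topoisomerase II on broken DNA, and poly-A RNA was sequenced. There were 8 groups and 32 libraries, with 4 plates per group. The labels do not give the number of edited lines behind a genotype, so genotype and line cannot be told apart. Each p-value measures the spread between plates, pooled per gene over all 8 groups except where the compared groups were fitted alone. Wide scatter in 1 group therefore enters the SE of every comparison of that gene.

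Netrins are secreted laminin-related proteins that steer growing axons and also act on cell adhesion, migration and survival outside the nervous system. Netrin-1 attracts through DCC and its relative neogenin, the product of NEO1, and repels through the UNC5 receptors, alone or together with DCC. DCC and the UNC5 proteins are known as dependence receptors: bound by netrin-1 they signal survival, and without ligand they can be cleaved by caspases and promote apoptosis. Several of these genes, UNC5B foremost, have been described as p53 targets.

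The data describe transcription in cells that differ in p53, so the start-site regions of 3 members are shown, those of NTN4, UNC5A and UNC5C. Each has 300 bases from RefSeq (GRCh38.p14), 250 before and 50 after the annotated start. Of the 8 members, 5 matched the table by symbol (NTN4, UNC5A, UNC5C, DCC and NEO1). The regions of DCC and NEO1 were searched in the same way and are not shown. Capitals mark every match, on either strand, to 5 motifs: the p53 decamer, the NF-kB site, the AP-1 site TGANTCA, the GC box GGGCGG and the TATA box TATAAA. Positions are counted from the start at 0 to the first base of a match.
NTN4, chr12:95791106-95791405, - strand: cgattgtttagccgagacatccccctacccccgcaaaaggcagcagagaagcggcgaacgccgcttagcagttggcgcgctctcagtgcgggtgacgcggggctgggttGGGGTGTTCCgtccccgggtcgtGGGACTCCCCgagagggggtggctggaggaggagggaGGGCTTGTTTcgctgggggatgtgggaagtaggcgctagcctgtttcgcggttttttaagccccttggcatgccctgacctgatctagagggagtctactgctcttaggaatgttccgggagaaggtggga
UNC5A, chr5:176810309-176810608, + strand: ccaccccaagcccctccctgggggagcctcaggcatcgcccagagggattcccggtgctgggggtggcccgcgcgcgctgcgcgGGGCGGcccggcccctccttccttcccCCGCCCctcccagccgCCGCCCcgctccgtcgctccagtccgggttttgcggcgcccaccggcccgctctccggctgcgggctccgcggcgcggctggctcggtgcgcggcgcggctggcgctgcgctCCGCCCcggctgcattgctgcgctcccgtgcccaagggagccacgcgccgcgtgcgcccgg
UNC5C, chr4:95548924-95549223, - strand: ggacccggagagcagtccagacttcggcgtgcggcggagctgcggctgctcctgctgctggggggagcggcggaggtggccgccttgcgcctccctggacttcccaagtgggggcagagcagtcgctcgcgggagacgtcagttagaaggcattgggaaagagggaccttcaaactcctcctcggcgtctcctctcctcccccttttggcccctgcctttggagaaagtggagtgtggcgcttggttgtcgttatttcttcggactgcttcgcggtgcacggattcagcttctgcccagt
The NTN4 window held 1 p53 decamer, at -81, and 2 NF-kB sites, at -141 and -118. The decamer is a p53 half-site, not a full site, and was the only such match in the 5 windows. UNC5A held 4 GC boxes, at -166, -139, -123 and -11, in a window of 80.7% G and C. UNC5C and DCC had no match to the 5 motifs, which says only that those letters are not in these windows. NEO1 had 1 GC box, at -131. Among 35116 promoters of the same length, 6.63% held the p53 decamer, 11.3% the NF-kB site, 7.71% the AP-1 site, 45.0% the GC box and 11.5% the TATA box. A match is a description of the letters and not a measured binding site.

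Values are normalized counts, the reads assigned to a gene after the authors' library scaling. Group values are means ± SD over n = 4 libraries unless said otherwise. Recovered library totals were 18.3 to 24.2 M counts (M, mega), apart from library 2 of HET with etoposide at 8.05 M. Libraries 2, 3 and 4 of HOM with DMSO stood apart: mitochondrially encoded genes took 20.7%, 21.3% and 21.9% of their normalized counts, against 7.87% to 15.2% in the other DMSO libraries, and their normalized counts summed to between 32 and 47.3 M, against 16.2 to 24.7 M in the other 29 libraries of the series. Member results that rest on HOM with DMSO are therefore also given without these 3 libraries, where the lone library 1 is assumed to vary like the other groups. All 10 mesenchymal and osteoblast markers exceeded a group mean of 10 normalized counts, as did 5 of 7 epithelial, 1 of 7 blood, 4 of 4 endothelial and 6 of 7 neuronal markers. COL1A1 and VIM led the first list and NEFL, at up to 4649 normalized counts, led the last. In bulk RNA, fewer cells of a type and less RNA per cell cannot be told apart.

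A gene passed at a Benjamini-Hochberg adjusted p under 0.05 and a change of at least 1.5-fold, in limma's moderated test over 16824 genes on log2(normalized count + 1), a scale that understates changes of low genes. All 8 members passed the filter on low counts. With etoposide, 5 of 8 members passed in WT, where 35% of all genes did, 4 in KO (32.6% of all genes), 5 in HET (30.2%) and 4 in HOM (65.6%). Relative to all genes, more members passed in WT, KO and HET and fewer in HOM, a description of 8 genes with no test. Scaling to total counts in place of the authors' scaling moved the median over all genes by 0.22 in WT, 0.30 in KO, 0.19 in HET and 0.97 in HOM on the log2 scale. With that scaling, genes that rose and fell numbered 4389 and 1485 in WT (3389 and 2501 with the authors' scaling), 4805 and 1189 in KO (3039 and 2444), 3753 and 1266 in HET (2937 and 2141) and 10595 and 1010 in HOM (6256 and 4788). Among members, rises and falls went from 2 and 3 to 2 and 1 in WT, from 0 and 4 to 1 and 4 in KO, stayed at 2 and 3 in HET, and went from 0 and 4 to 2 and 0 in HOM. Changes below are relative to the authors' scaling unless another is named.

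**Figure D1:**
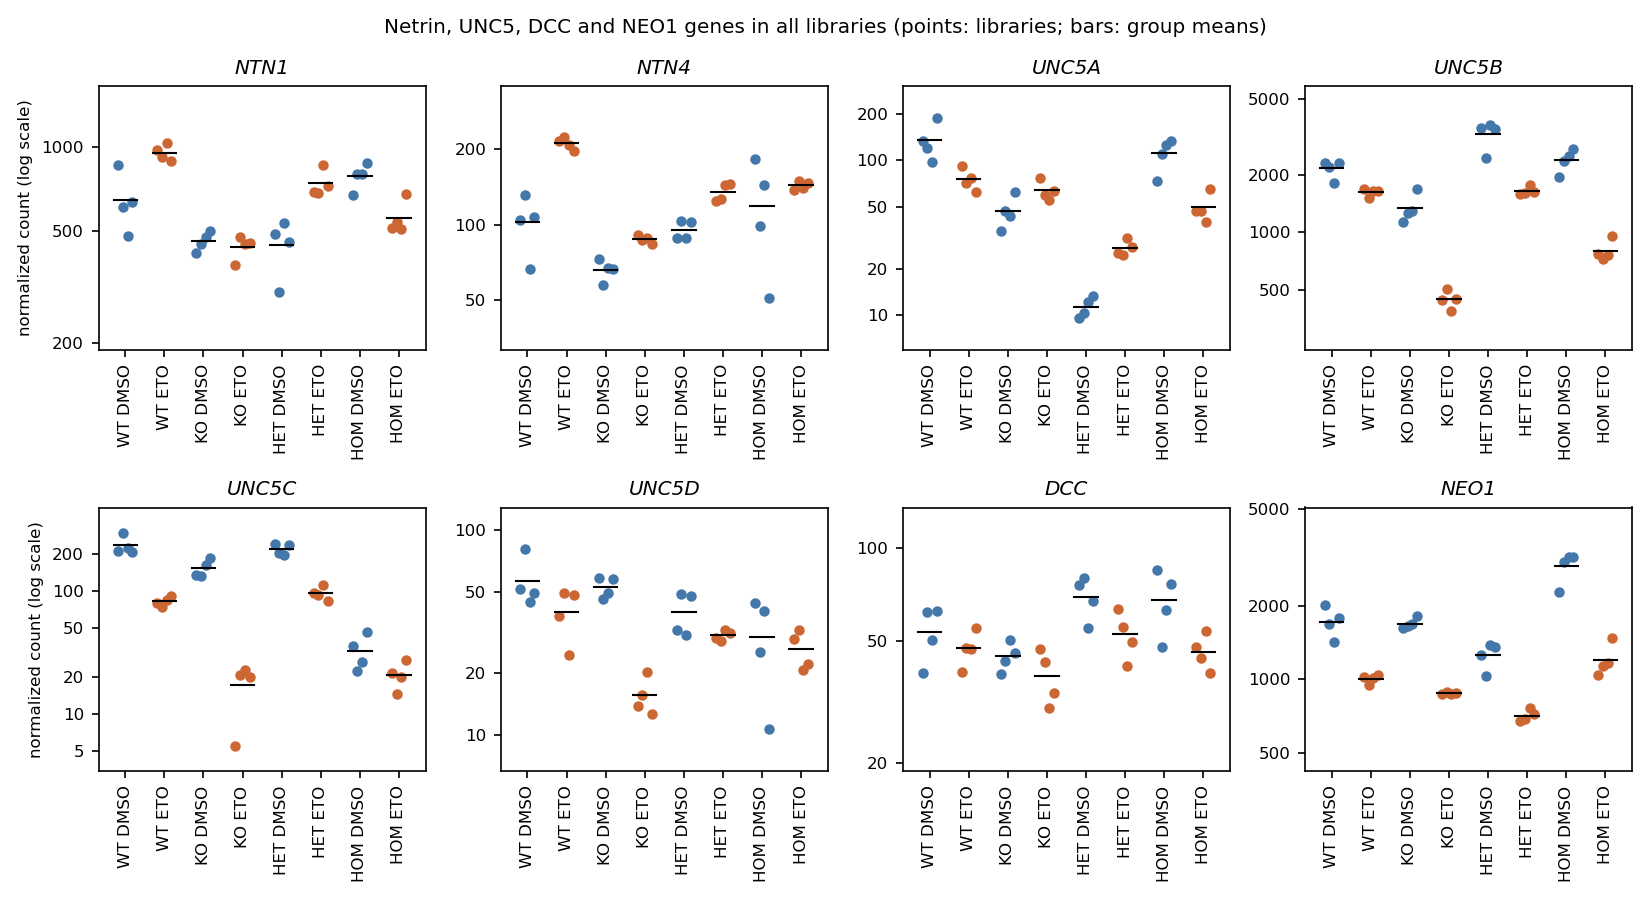
Normalized counts (log axis) of the 8 genes in each of 32 libraries, 4 per group; blue points are DMSO, orange points etoposide, and black bars group means. UNC5A lies lowest in HET with DMSO (9.62 to 13.3), UNC5C in KO with etoposide (5.53 to 22.7) and in HOM, and UNC5B in KO with etoposide (389 to 503).

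Divided by transcript length, UNC5B and NEO1 were the most abundant members in all 4 DMSO groups and in HOM with etoposide. In WT with DMSO, UNC5B stood at 316 ± 34.4 normalized counts per kb of its longest coding transcript (mean ± SD, n = 4), NEO1 at 235 ± 33.2, NTN1 at 108 ± 26.3, UNC5A at 34.2 ± 9.89, NTN4 at 28.4 ± 7.45, UNC5C at 23.6 ± 4.25, UNC5D at 6.51 ± 1.89 and DCC at 5.23 ± 1.08. The 3 leading levels were separated by more than their SDs, whereas UNC5A and NTN4, NTN4 and UNC5C, and UNC5D and DCC differed as neighbours by less than the larger of their SDs. With etoposide, NTN1 stood above NEO1 in WT (159.8 and 137 per kb) and HET (124 and 96.8), and above UNC5B in KO (73.9 and 65.1). The order depended on the length used. With the median coding transcript, NEO1 in WT with DMSO moved to 299.8 against 326 for UNC5B, closer than the SDs above. NTN4 then moved to 40.1 and UNC5C to 40.2, above UNC5A at 34.8, and UNC5D to 16.6, above DCC at 5.60. With etoposide in WT, NEO1 at 175 was then above NTN1 at 159.8.

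NTN1, which encodes netrin-1, rose with etoposide in WT and HET and passed in neither KO nor HOM. The gene lies at chr17:9021542-9244000 (+ strand), GENCODE 29, GRCh38. WT libraries held 857, 609.6, 479.9 and 637 normalized counts with DMSO and 974, 918, 1026 and 888 with etoposide. HET libraries held 488, 304, 534 and 459 with DMSO and 692, 685, 858 and 723 with etoposide. In both genotypes every etoposide library lay above every DMSO library. KO libraries held 419.5, 452, 477 and 500.0 without and 379.8, 478, 449.7 and 452 with etoposide, and the groups overlapped. HOM libraries held 674, 798, 799 and 871 without and 514, 537, 508 and 677 with etoposide, which overlapped by a single library of each group. The log2 response was 0.59 ± 0.15 (SE; adjusted p = 0.00191) in WT and 0.75 ± 0.15 (SE; adjusted p = 0.00015) in HET. It was -0.07 ± 0.15 (SE; adjusted p = 0.716) in KO and -0.49 ± 0.15 (SE; adjusted p = 0.00414) in HOM, the latter under 1.5-fold; without libraries 2 to 4 of HOM with DMSO it was -0.28 (adjusted p = 0.333). The HOM direction turned with total-count scaling, to 0.52 (adjusted p = 0.00407), also under 1.5-fold.

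The NTN1 response differed from that of WT by -0.66 ± 0.21 (SE; adjusted p = 0.0282) in KO and by -1.08 ± 0.21 (SE; adjusted p = 0.000161) in HOM. The difference in HOM was -0.87 (adjusted p = 0.0234) without its 3 DMSO libraries and -0.30 (adjusted p = 0.25) with total-count scaling. For HET against WT it was 0.17 ± 0.21 (SE; adjusted p = 0.821), with a 95% interval of -0.27 to 0.60. With etoposide, NTN1 was lower than in WT at a log2 difference of -1.11 ± 0.15 (SE; adjusted p = 5.87e-07) in KO and -0.77 ± 0.15 (SE; adjusted p = 0.00011) in HOM; the latter was -0.55 with total-count scaling, under 1.5-fold. The WT response sat at the 1.5-fold threshold: it fell under it without WT DMSO library 2 (0.57) or 3 (0.45), without WT etoposide library 1 (0.57) or 3 (0.55), with a pseudocount of 5 (0.58), on the deposited scale (0.56) and with array weights (0.50). The KO difference lost its call without WT DMSO library 3 (-0.53), WT etoposide library 3 (-0.62), KO DMSO library 4 (-0.62) or KO etoposide library 1 (-0.59), with total-count scaling (-0.58) and with array weights (-0.55), and the HET response lost it without HET DMSO library 2 (0.58). The HOM response passed without HOM etoposide library 4 (-0.59) and with array weights (-0.59). With DMSO, NTN1 differed from WT by -0.45 ± 0.15 in KO and -0.53 ± 0.15 in HET, both under 1.5-fold; without WT DMSO library 3 these were -0.59 and -0.67 and passed, as did the HET value without HET DMSO library 1 (-0.59) or 3 (-0.63) or with quantile scaling (-0.63). HOM exceeded KO with DMSO by 0.76 ± 0.15 (SE; adjusted p = 0.000104), or 0.55 (adjusted p = 0.141) without the 3 libraries and 0.20 (adjusted p = 0.264) with total-count scaling.

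NTN4, a basement-membrane netrin that binds laminin, rose with etoposide in WT and had its highest values there. It lies at chr12:95657807-95791152 (- strand). WT libraries held 105, 132, 66.6 and 107 normalized counts with DMSO and 216, 224, 209 and 197 with etoposide. HET libraries held 88.3, 104, 88.4 and 103 and 124, 127, 144 and 145, in the same order. KO libraries held 73.0, 57.8, 67.5 and 66.8 and 91.3, 86.8, 88.5 and 84.1. In WT, HET and KO all etoposide libraries exceeded all DMSO libraries. HOM libraries with DMSO were scattered, at 183, 98.6, 144 and 51.0, around the narrow range of 138 to 149 with etoposide. In log2 units the response was 1.07 ± 0.23 (SE, adjusted p = 0.00026) in WT. The values of 0.40 ± 0.23 in KO, 0.49 ± 0.23 in HET and 0.42 ± 0.23 in HOM were under 1.5-fold, with adjusted p of 0.146, 0.0811 and 0.096. The SE is pooled over groups whose SDs ran from 3.02 normalized counts in KO with etoposide to 57.2 in HOM with DMSO. Over the alternatives the adjusted p ran from 0.00129 to 0.283 in KO and from 2.83e-05 to 0.157 in HET, and neither response passed.

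No difference between NTN4 responses passed in the fit reported: it was -0.67 ± 0.32 (SE; adjusted p = 0.161) for KO against WT and -0.66 ± 0.32 (SE; adjusted p = 0.0791) for HOM against WT. The KO difference passed with quantile scaling (-0.65 (adjusted p = 0.036)), with array weights (-0.61 (adjusted p = 0.00186)) and with the compared groups alone (-0.67 (adjusted p = 0.0323)). The HOM difference passed with quantile scaling (-1.13), voom (-0.74) and array weights (-0.70). The HOM response turned with the 3 libraries. The HOM response passed without HOM DMSO library 1 (0.67) and with total-count scaling (1.41), and without libraries 2 to 4 it was -0.35 (adjusted p = 0.167), the difference from WT -1.43 (adjusted p = 9.26e-05), and the DMSO difference of HOM from WT 0.87 (adjusted p = 0.00919) in place of 0.11 ± 0.23 (SE; adjusted p = 0.697). The difference of HOM from WT responses also passed without HOM DMSO library 4 (-1.01) or WT DMSO library 2 (-0.79). With etoposide, NTN4 was lower than in WT at a log2 difference of -1.26 ± 0.23 (SE; adjusted p = 4.52e-05) in KO and -0.64 ± 0.23 (SE; adjusted p = 0.0272) in HET, and was higher in HOM than in KO by 0.71 ± 0.23 (SE; adjusted p = 0.025). With DMSO, HOM exceeded KO by 0.69 ± 0.23 (SE; adjusted p = 0.00874), or 1.46 (adjusted p = 1.55e-05) without the 3 libraries; that call ended without HOM DMSO library 1 (0.44) or 3 (0.55), and KO against WT, at -0.59 ± 0.23, passed without WT DMSO library 3 (-0.78), with quantile scaling (-0.59) and with array weights (-0.65). On the deposited scale the calls of HET against WT with etoposide (-0.53) and of HOM against KO with DMSO (0.52) and etoposide (0.54) ended. They also ended with total-count scaling, at -0.40 (adjusted p = 0.319), 0.14 (adjusted p = 0.703) and 0.85 (adjusted p = 0.052), and that of HOM against KO with DMSO with the compared groups alone (adjusted p = 0.157). For HOM against WT with etoposide the difference was -0.55 ± 0.23, and it passed with quantile scaling (-0.63). The HET value with etoposide lost its call without WT etoposide library 1 (-0.63), 2 (-0.62) or 3 (-0.65) or HET etoposide library 1 (-0.61) or 2 (-0.62). That of HOM against KO lost it without KO etoposide library 2 (0.70) or 4 (0.69) or HOM etoposide library 2 (0.69) or 4 (0.69).

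UNC5A, a netrin receptor of the UNC5 family, responded in opposite directions with the authors' scaling: it fell in WT and HOM and rose in HET. It lies at chr5:176810477-176880898 (+ strand). WT libraries held 133, 119, 97.5 and 189 normalized counts with DMSO and 91.5, 71.2, 77.5 and 62.6 with etoposide. HET libraries held 9.62, 10.4, 12.2 and 13.3 with DMSO and 25.4, 24.6, 31.6 and 27.6 with etoposide. Every WT library was thus above every HET library, and the order of treatments was opposite without overlap. KO libraries held 35.0, 47.1, 43.7 and 62.4 with DMSO and 77.4, 59.9, 55.2 and 63.9 with etoposide, which overlapped. HOM libraries held 73.4, 111, 126 and 134 and 47.5, 47.1, 39.9 and 65.5, without overlap. The log2 response was -0.80 ± 0.21 (SE; adjusted p = 0.00229) in WT, 1.20 ± 0.21 (SE; adjusted p = 2.47e-05) in HET, 0.46 ± 0.21 (SE; adjusted p = 0.0726) in KO and -1.12 ± 0.21 (SE; adjusted p = 2.11e-05) in HOM. Without the 3 HOM libraries the HOM response was -0.57 (adjusted p = 0.124). With total-count scaling it was -0.12 in HOM, -0.57 in WT, both under the threshold, and 0.76 (adjusted p = 0.000907) in KO, where the response also passed without KO DMSO library 4 (0.60). On the deposited scale the HET response was 0.52.

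The lowest UNC5A level was in HET with DMSO, at 11.4 ± 1.67 normalized counts, against 135 ± 39.0 in WT. The log2 differences from WT with DMSO were -3.42 ± 0.21 (SE; adjusted p = 9.63e-14) in HET, a 10.7-fold lower level, -1.49 ± 0.21 (SE; adjusted p = 4.9e-06) in KO and -0.27 ± 0.21 (SE; adjusted p = 0.253) in HOM. Over the alternatives the HET difference ran from -3.60 to -1.97. Without libraries 2 to 4, the HOM difference was -0.83 (adjusted p = 0.12), and with total-count scaling -0.83 (adjusted p = 0.00029). With etoposide, HET remained below WT at a log2 difference of -1.43 ± 0.21 (SE; adjusted p = 3.72e-06), KO differed by -0.23 ± 0.21 (SE; adjusted p = 0.404) and HOM by -0.60 ± 0.21 (SE; adjusted p = 0.0213). The HOM value lost its call without WT etoposide library 1 (-0.51) or 3 (-0.58) or HOM etoposide library 1 (-0.58), 2 (-0.58) or 3 (-0.50), with a pseudocount of 5 (-0.56), on the deposited scale (-0.39) and with total-count scaling (-0.38). The response differed from that of WT by 1.99 ± 0.29 (SE; adjusted p = 3.85e-05) in HET and 1.25 ± 0.29 (SE; adjusted p = 0.00255) in KO, and the calls of both held in each of the 26 alternatives run for them. With DMSO, HOM exceeded KO by 1.21 ± 0.21 (SE; adjusted p = 2.1e-05), or 0.66 (adjusted p = 0.181) without the 3 libraries. HOM and KO responses differed by -1.58 ± 0.29 (SE; adjusted p = 0.000608), or -1.02 (adjusted p = 0.172) without the 3 libraries. HK3, which overlaps UNC5A exons on the other strand, had group means of 0.656 to 6.33 normalized counts. The ends of that range were HET with DMSO and HET with etoposide, where UNC5A stood at 11.4 and 27.3. In every genotype the HK3 mean was higher with etoposide than with DMSO. Sharing of reads between these genes was not tested.

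UNC5B, the UNC5 receptor known from blood vessels and as a p53-inducible gene, fell with etoposide in KO, HET and HOM. It lies at chr10:71212570-71302864 (+ strand). WT libraries held 2314, 2209, 1819 and 2314 normalized counts with DMSO and 1689.8, 1520.3, 1649 and 1647 with etoposide. KO libraries held 1139.8, 1259, 1293 and 1685 with DMSO and 443, 503, 389 and 447 with etoposide. The etoposide libraries lay below the DMSO libraries in both genotypes. HET libraries held 3549, 2463, 3661 and 3469 and 1593, 1609.6, 1767 and 1639, and HOM libraries 1946, 2362, 2530.2 and 2725 and 768, 724, 761 and 957, again without overlap. Etoposide over DMSO gave a log2 change of -1.58 ± 0.13 (SE; adjusted p = 4.07e-11) in KO, -1.57 ± 0.13 (SE; adjusted p = 2.17e-11) in HOM and -0.98 ± 0.13 (SE; adjusted p = 3.23e-07) in HET. In WT it was -0.41 ± 0.13 (SE; adjusted p = 0.01), under 1.5-fold. The HOM response was -1.29 (adjusted p = 3.53e-06) without the 3 libraries and -0.56 (adjusted p = 0.000156), under 1.5-fold, with total-count scaling.

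The UNC5B response differed from that of WT by -1.18 ± 0.18 (SE; adjusted p = 1.68e-05) in KO and -1.17 ± 0.18 (SE; adjusted p = 9.08e-06) in HOM. KO and HOM responses differed by 0.01 ± 0.18, with a 95% interval of -0.36 to 0.38, and by 0.30 (adjusted p = 0.646) without the 3 HOM libraries. With total-count scaling this difference was 0.72 (adjusted p = 0.00249) and passed. Without the 3 HOM libraries the difference of HOM from WT was -0.88 (adjusted p = 0.00457), and with total-count scaling -0.38 (adjusted p = 0.0562). HET and WT responses differed by -0.57 ± 0.18 (SE; adjusted p = 0.0617), which passed without HET DMSO library 2 (-0.70), with total-count (-0.61) or quantile scaling (-0.61) and with array weights (-0.61). With etoposide, UNC5B was lower than in WT at a log2 difference of -1.87 ± 0.13 (SE; adjusted p = 1.14e-12) in KO and -1.03 ± 0.13 (SE; adjusted p = 1.43e-07) in HOM, calls that held in all alternatives run, as did that of HOM above KO at 0.85 ± 0.13 (SE; adjusted p = 1.29e-05). The HET value was 0.02 ± 0.13, with a 95% interval of -0.24 to 0.28. With DMSO, KO was below WT at a log2 difference of -0.70 ± 0.13 (SE; adjusted p = 0.000247) and HET above it by 0.59 ± 0.13 (SE; adjusted p = 0.000468). HOM exceeded KO with DMSO by 0.83 ± 0.13 (SE; adjusted p = 5.64e-06), or 0.55 (adjusted p = 0.0577) without the 3 libraries, 0.28 with total-count scaling and 0.46 with quantile scaling, none of which passed. The HET call ended without WT DMSO library 3 (0.51) or HET DMSO library 1 (0.55), 3 (0.53) or 4 (0.56) and on the deposited scale (0.58).

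**Figure D2:**
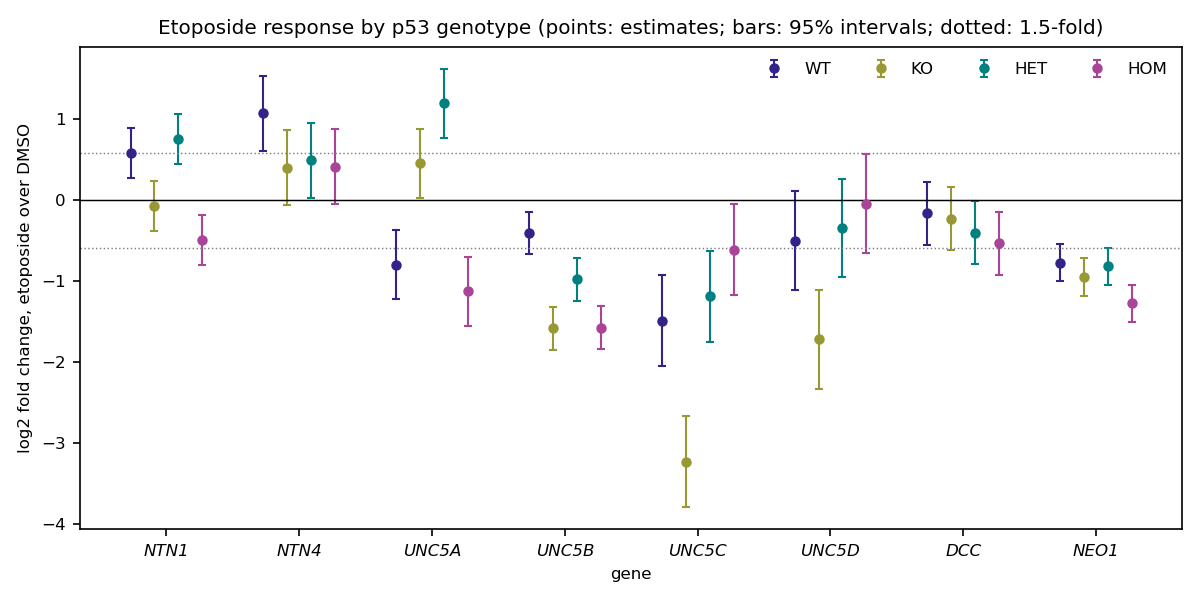
Log2 fold change of etoposide over DMSO for each gene (x axis) in WT, KO, HET and HOM; bars are 95% intervals and dotted lines mark 1.5-fold. NEO1 lies below the lower line in all 4 genotypes with the authors' scaling, UNC5A lies on opposite sides of 0 in WT and HET, and UNC5C in KO lies lowest at -3.22.

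UNC5C, a receptor of repulsive axon guidance, had the highest ratio of its highest to its lowest group mean among the 8 members, and it fell with etoposide in WT, KO and HET. It lies at chr4:95162504-95549206 (- strand). WT libraries held 209, 296, 222 and 207 normalized counts with DMSO and 79.8, 74.3, 83.6 and 90.6 with etoposide. HET libraries held 238, 204, 194 and 234 and 95.7, 92.3, 111 and 81.9. The WT and HET ranges overlapped each other within each treatment, and the treatments did not overlap. KO libraries held 133, 133, 162 and 186 with DMSO and 5.53, 20.8, 22.7 and 20.2 with etoposide, the lowest of them resting on 6 recovered counts. HOM libraries were low with either treatment, at 35.6, 22.4, 26.3 and 46.7 with DMSO and 21.4, 14.6, 19.9 and 27.2 with etoposide. On the log2 scale the response was -3.22 ± 0.28 (SE; adjusted p = 1.22e-10) in KO, -1.48 ± 0.28 (SE; adjusted p = 5.36e-05) in WT and -1.19 ± 0.28 (SE; adjusted p = 0.000806) in HET. Alternatives put the response in KO between -3.40 and -1.95, and its call held. In HOM, where the treatments overlapped, it was -0.61 ± 0.28 (SE; adjusted p = 0.0458) and turned to 0.36 (adjusted p = 0.263) with total-count scaling. That HOM call also ended without the 3 DMSO libraries, at -0.78 (adjusted p = 0.117), without HOM DMSO library 1 (-0.55) or 4 (-0.42) alone, and without HOM etoposide library 1 (-0.63), 2 (-0.46) or 3 (-0.60). It ended as well with a pseudocount of 5 (-0.53), on the deposited scale (-0.31), with array weights (-0.43), with voom (adjusted p = 0.0636), with no filter on low values (adjusted p = 0.0723) and with the compared groups alone (adjusted p = 0.108).

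The KO response of UNC5C was stronger than that of WT at a log2 difference of -1.74 ± 0.39 (SE; adjusted p = 0.00161), or -1.92 to -0.78 over the alternatives. The HOM response was weaker than that of KO by 2.61 ± 0.39 (SE; adjusted p = 6.46e-05). The latter was 2.44 (adjusted p = 0.00541) without the 3 HOM libraries. Between HOM and WT the difference was 0.88 ± 0.39 (SE; adjusted p = 0.0556); it passed without HOM DMSO library 1 (0.93) or 4 (1.06), without HOM etoposide library 2 (1.03), and with total-count scaling (1.62). It passed also with a pseudocount of 5 (0.91), a filter of 50 (0.88), the deposited scale (0.86 (adjusted p = 0.00064)), voom (0.86), array weights (0.99) and the compared groups alone (0.88), so that 10 of 27 alternatives changed the call. It was 0.70 (adjusted p = 0.333) without the 3 DMSO libraries. With DMSO, UNC5C was lower in HOM than in WT at a log2 difference of -2.83 ± 0.28 (SE; adjusted p = 1.06e-08), 7.13-fold, and lower than in KO at a log2 difference of -2.23 ± 0.28 (SE; adjusted p = 2.31e-07). Without the 3 libraries these were -2.66 (adjusted p = 8.67e-05) and -2.06 (adjusted p = 0.000947). KO and WT differed with DMSO by -0.60 ± 0.28 (SE; adjusted p = 0.18), which passed with voom (adjusted p = 0.0185) and with the compared groups alone (adjusted p = 0.043). With etoposide, UNC5C was lower than in WT at a log2 difference of -2.34 ± 0.28 (SE; adjusted p = 5.2e-08) in KO and -1.96 ± 0.28 (SE; adjusted p = 1.04e-06) in HOM. Over the alternatives the KO difference ran from -2.52 to -1.28 and that of HOM from -2.09 to -1.14. HOM and KO then differed by 0.38 ± 0.28, with a 95% interval of -0.18 to 0.94.

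UNC5D, an UNC5 receptor known from the developing cortex, was low in all groups and fell with etoposide in KO. It lies at chr8:35235457-35796550 (+ strand). KO libraries held 58.4, 46.0, 49.4 and 57.9 normalized counts with DMSO and 13.8, 15.6, 20.3 and 12.6 with etoposide, without overlap. WT libraries held 51.5, 80.5, 44.4 and 49.0 and 37.8, 49.2, 24.4 and 48.2, and HET libraries 32.4, 48.6, 30.6 and 47.8 and 29.6, 28.7, 32.5 and 31.5, with overlap in both. HOM libraries with DMSO ranged widely, at 44.0, 25.4, 40.3 and 10.6, and held 29.3, 32.5, 20.7 and 22.1 with etoposide. The response in log2 units was -1.71 ± 0.30 (SE; adjusted p = 2.79e-05) in KO. It was -0.50 ± 0.30 in WT, -0.34 ± 0.30 in HET and -0.04 ± 0.30 in HOM, none of which passed, and turned in HOM to 0.91 (adjusted p = 0.0258) with total-count scaling. With quantile scaling WT (-0.78) and HOM (-0.60) passed as falls. Without the 3 HOM libraries the HOM response was -0.75 (adjusted p = 0.0735).

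The difference of KO from WT responses in UNC5D, -1.22 ± 0.42 (SE; adjusted p = 0.0425), was at the edge of the threshold. Its adjusted p rose above 0.05 without WT DMSO library 1, 3 or 4, WT etoposide library 1, 2 or 4, KO DMSO library 1, 3 or 4 or KO etoposide library 1, 2 or 4, with differences between -1.25 and -1.10, and also with no filter on low values, on the deposited scale (-0.59) and with total-count scaling (-1.14). HOM and WT responses differed by 0.46 ± 0.42, and by 1.19, past the threshold, with total-count scaling. HOM and KO responses differed by 1.67 ± 0.42 (SE; adjusted p = 0.00368), and by 0.96 (adjusted p = 0.304) without the 3 libraries. UNC5D was lower in KO than in WT with etoposide at a log2 difference of -1.27 ± 0.30 (SE; adjusted p = 0.000988). With DMSO it was lower in HOM than in WT at a log2 difference of -1.02 ± 0.30 (SE; adjusted p = 0.00408) and than in KO at -0.97 ± 0.30 (SE; adjusted p = 0.00573), which without the 3 libraries became -0.31 (adjusted p = 0.715) and -0.25 (adjusted p = 0.736). Both calls ended also on the deposited scale (-0.55 and -0.51), with array weights (-0.80 and -0.75) and with the compared groups alone (adjusted p = 0.109 and 0.0958). HOM against KO with etoposide, at 0.71 ± 0.30, passed with array weights (0.59) and with the compared groups alone. Leaving out HOM DMSO library 4 alone, where UNC5D was lowest, gave -0.55 against KO. The pseudogene LSM12P1 lies on the other strand within an intron of UNC5D and had group means of 49.9 to 95.4 normalized counts. The strand used in counting is not given in the sources used here.

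DCC, the founding netrin-1 receptor of the attractive response, passed in none of the 16 contrasts in the fit reported. It lies at chr18:52340172-53535903 (+ strand). Its lowest and highest libraries were 39.1 to 62.3 normalized counts in WT with DMSO and 39.5 to 54.9 with etoposide. The ranges were 38.9 to 50.4 and 30.0 to 47.0 in KO, 55.1 to 79.8 and 41.4 to 63.5 in HET, and 47.8 to 84.9 and 39.1 to 53.7 in HOM. All of these ranges overlapped between treatments. The log2 response was -0.16 ± 0.19 in WT, -0.23 ± 0.19 in KO, -0.40 ± 0.19 in HET and -0.53 ± 0.19 (SE; adjusted p = 0.0129) in HOM. The 95% intervals of the first 3 were -0.55 to 0.23, -0.61 to 0.16 and -0.79 to -0.01. The HOM response depended on the scaling. With total-count scaling it turned to 0.46 (adjusted p = 0.0642). With quantile normalization its HOM response was -1.20 (adjusted p = 4.09e-06), and without the 3 DMSO libraries -0.88 (adjusted p = 0.00988). It also passed without HOM DMSO library 2 (-0.69) or HOM etoposide library 3 (-0.61). With DMSO, HOM was above KO by 0.58 ± 0.19 (SE; adjusted p = 0.00905), under 1.5-fold, and by 0.92 (adjusted p = 0.0262) without the 3 libraries; this difference passed as well without HOM DMSO library 2 (0.73) or 3 (0.60) or KO DMSO library 3 (0.64) or 4 (0.59), with voom (0.60) and with quantile scaling (0.95), and was 0.03 with total-count scaling. With total-count scaling DCC was higher in HET than in WT with DMSO by 0.66 (adjusted p = 0.0196), in place of 0.39 ± 0.19. Quantile scaling gave calls for HOM against WT with DMSO (0.72) and for the HOM response against those of WT (-0.78) and KO (-0.81).

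NEO1, which encodes the DCC relative neogenin, a receptor of netrins and of repulsive guidance molecules, fell with etoposide in all 4 genotypes with the authors' scaling. It lies at chr15:73051710-73305206 (+ strand). WT libraries held 2015, 1686, 1427 and 1785 normalized counts with DMSO and 1019, 949, 1016 and 1043 with etoposide. KO libraries held 1619, 1658, 1683 and 1813 and 868, 889, 869 and 884. Treatments did not overlap in either genotype, and KO libraries with etoposide spanned the narrowest range of the 8 groups. HET libraries held 1257, 1028, 1390.2 and 1365 and 673, 685, 761 and 723, the lowest levels with either treatment. HOM libraries held 2282, 3047, 3166 and 3173 and 1042, 1134, 1170.4 and 1477, of which the DMSO group was the highest of all. The log2 response was -0.77 ± 0.11 (SE; adjusted p = 1.96e-06) in WT, -0.95 ± 0.11 (SE; adjusted p = 8.33e-08) in KO, -0.82 ± 0.11 (SE; adjusted p = 8.09e-07) in HET and -1.27 ± 0.11 (SE; adjusted p = 1.22e-10) in HOM. With total-count scaling it was -0.54 in WT and -0.26 in HOM, both under 1.5-fold, and it passed in KO and HET. Without the 3 libraries the HOM response was -0.93 (adjusted p = 2.46e-05).

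The NEO1 responses of KO and HET differed from that of WT by -0.18 ± 0.16 and -0.05 ± 0.16, with 95% intervals of -0.51 to 0.15 and -0.38 to 0.28. The HOM response differed by -0.50 ± 0.16 (SE; adjusted p = 0.00937), under 1.5-fold; it passed 1.5-fold without HOM DMSO library 1 (-0.62) or HOM etoposide library 4 (-0.61) and with array weights (-0.59), and was -0.16 (adjusted p = 0.586) without the 3 libraries. With DMSO, NEO1 was higher in HOM than in WT by 0.75 ± 0.11 (SE; adjusted p = 8.08e-06) and than in KO by 0.77 ± 0.11 (SE; adjusted p = 3.01e-06). Without the 3 libraries the differences were 0.41 (adjusted p = 0.138) and 0.43 (adjusted p = 0.0753), and with total-count scaling 0.19 and 0.21. With quantile scaling they were 0.33 and 0.36, under 1.5-fold. HOM was above KO with etoposide by 0.45 ± 0.11, under 1.5-fold, and passed with total-count scaling (0.59). HET was below WT at a log2 difference of -0.45 ± 0.11 (SE; adjusted p = 0.00183) with DMSO and -0.50 ± 0.11 (SE; adjusted p = 0.000945) with etoposide, both under 1.5-fold and without overlap of libraries.

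Between genotypes with DMSO, 2 of 8 members passed for KO against WT, where 8.35% of all genes did (UNC5A and UNC5B, both lower). For HET against WT 2 passed (32.5% of all genes; UNC5A lower, UNC5B higher), for HOM against WT 3 (47.6%; UNC5C and UNC5D lower, NEO1 higher), and for HOM against KO 7 (51.2%; all but DCC). Without HOM DMSO libraries 2 to 4, 2 members passed for HOM against WT, UNC5C and NTN4, where 4.54% of all genes did, and 3 for HOM against KO, where 8.66% did. Higher and lower members went with total-count scaling from 1 and 1 to 2 and 1 for HET against WT, from 1 and 2 to 0 and 3 for HOM against WT, and from 5 and 2 to 1 and 2 for HOM against KO. With etoposide, 5 members passed for KO against WT (26.7% of all genes), all lower: NTN1, NTN4, UNC5B, UNC5C and UNC5D. For HET against WT 2 passed (23.3%; NTN4 and UNC5A, lower), for HOM against WT 4 (28.6%; NTN1, UNC5A, UNC5B and UNC5C, lower), and for HOM against KO 2 (12.1%; NTN4 and UNC5B, higher). No member was higher than WT with etoposide in any of the 3 edited genotypes by this test. The 3 comparisons with WT share its libraries.

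**Figure D3:**
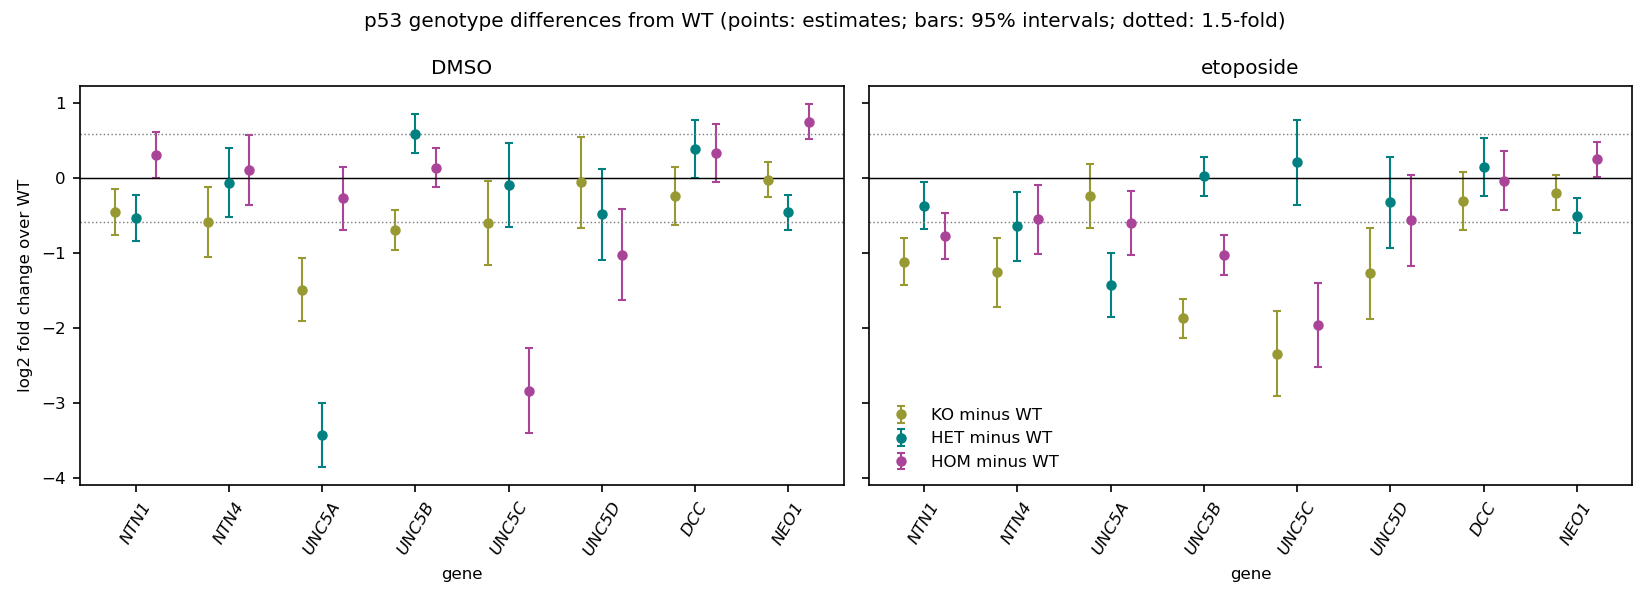
Log2 fold change of KO, HET and HOM over WT for each gene with DMSO (left) and etoposide (right); bars are 95% intervals and dotted lines mark 1.5-fold. With DMSO, UNC5A in HET (-3.42) and UNC5C in HOM (-2.83) lie lowest; with etoposide, UNC5B and UNC5C lie below WT in KO and HOM.

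Differences between responses passed for 5 members in KO against WT, where 15.2% of all genes did, for 1 in HET against WT (4.75%), for 2 in HOM against WT (50.2%) and for 3 in HOM against KO (43.7%). In KO the responses of NTN1, UNC5B, UNC5C and UNC5D were lower than in WT and that of UNC5A higher. With total-count scaling, higher and lower differences went from 1 and 4 to 1 and 2 for KO, from 1 and 0 to 1 and 1 for HET, from 0 and 2 to 2 and 0 for HOM against WT, and from 2 and 1 to 3 and 1 for HOM against KO. UNC5A, UNC5B and UNC5C passed for KO against WT with either scaling. Without the 3 HOM libraries, 311 genes in all passed for HOM against KO, against 7344 with them, and UNC5C was the only member among them.

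**Figure D4:**
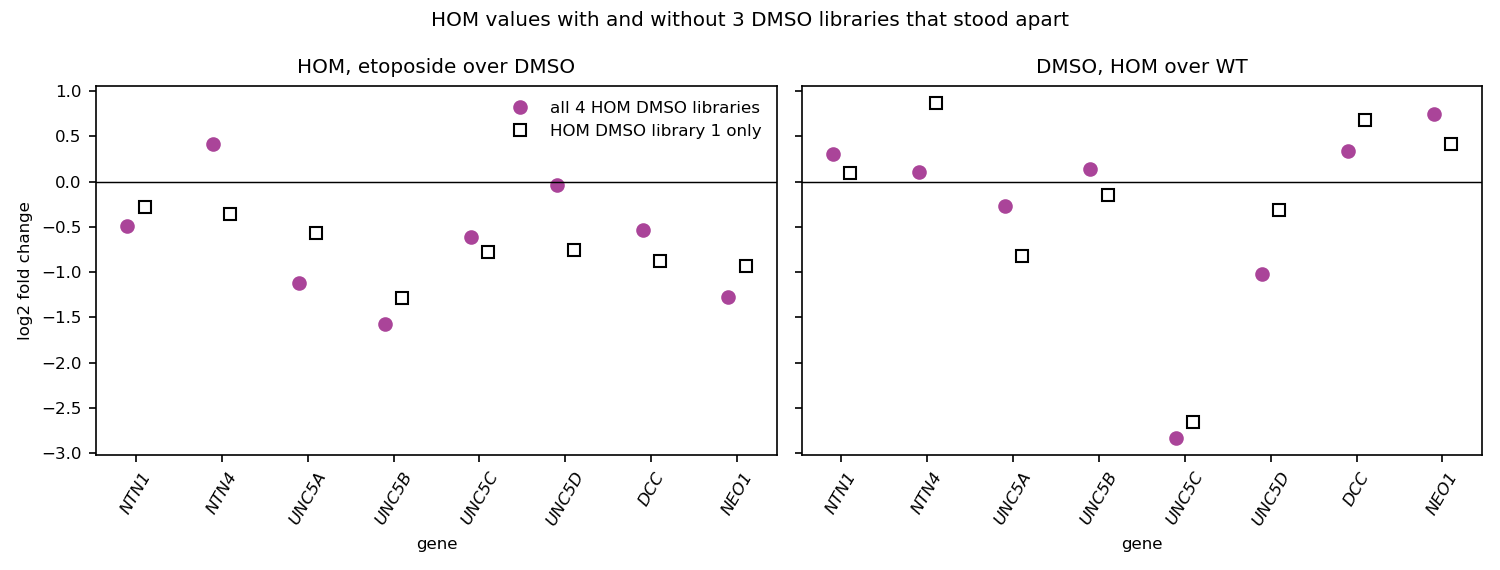
Log2 fold change of etoposide over DMSO in HOM (left) and of HOM over WT with DMSO (right), with all 4 HOM DMSO libraries (filled) and with library 1 only (open squares). UNC5C in HOM over WT moves little (-2.83 and -2.66), while NTN4 crosses 0 in the response (0.42 and -0.35).

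Ratios taken within a library do not depend on library scaling; they were chosen after the members' values were seen and carry no test. NTN1 counts per UNC5B count were higher with etoposide in every genotype, going from 0.296 ± 0.0496 to 0.585 ± 0.0363 in WT, from 0.348 ± 0.0345 to 0.994 ± 0.125 in KO, from 0.135 ± 0.00941 to 0.447 ± 0.0267 in HET and from 0.330 ± 0.0146 to 0.697 ± 0.0354 in HOM (mean ± SD, n = 4). No library with etoposide overlapped the DMSO libraries of its genotype. NTN1 did not pass in KO or HOM, where UNC5B fell. UNC5B per NEO1 count was 1.26 ± 0.0741 in WT, 0.790 ± 0.0969 in KO, 2.60 ± 0.179 in HET and 0.821 ± 0.0409 in HOM with DMSO. It was 1.62 ± 0.0337, 0.507 ± 0.0481, 2.33 ± 0.0441 and 0.668 ± 0.0458 with etoposide, so that HET was highest and WT next with either treatment. HOM libraries held 1.38 ± 0.454 UNC5C counts per 100 UNC5B counts with DMSO, against 10.9 ± 2.25 in WT. Library 1 of HOM with DMSO alone held 0.346 NTN1 per UNC5B, 0.853 UNC5B per NEO1 and 1.83 UNC5C per 100 UNC5B counts. With counts divided by the length of the longest coding transcript, UNC5A made up 0.575 ± 0.101% of the UNC5A to UNC5D sum in HET with DMSO. In KO with etoposide it made up 19.2 ± 2.62%. These were its lowest and highest shares, while UNC5B held 76.6% to 94.1% in group means. Such shares depend on the length used.

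**Figure D5:**
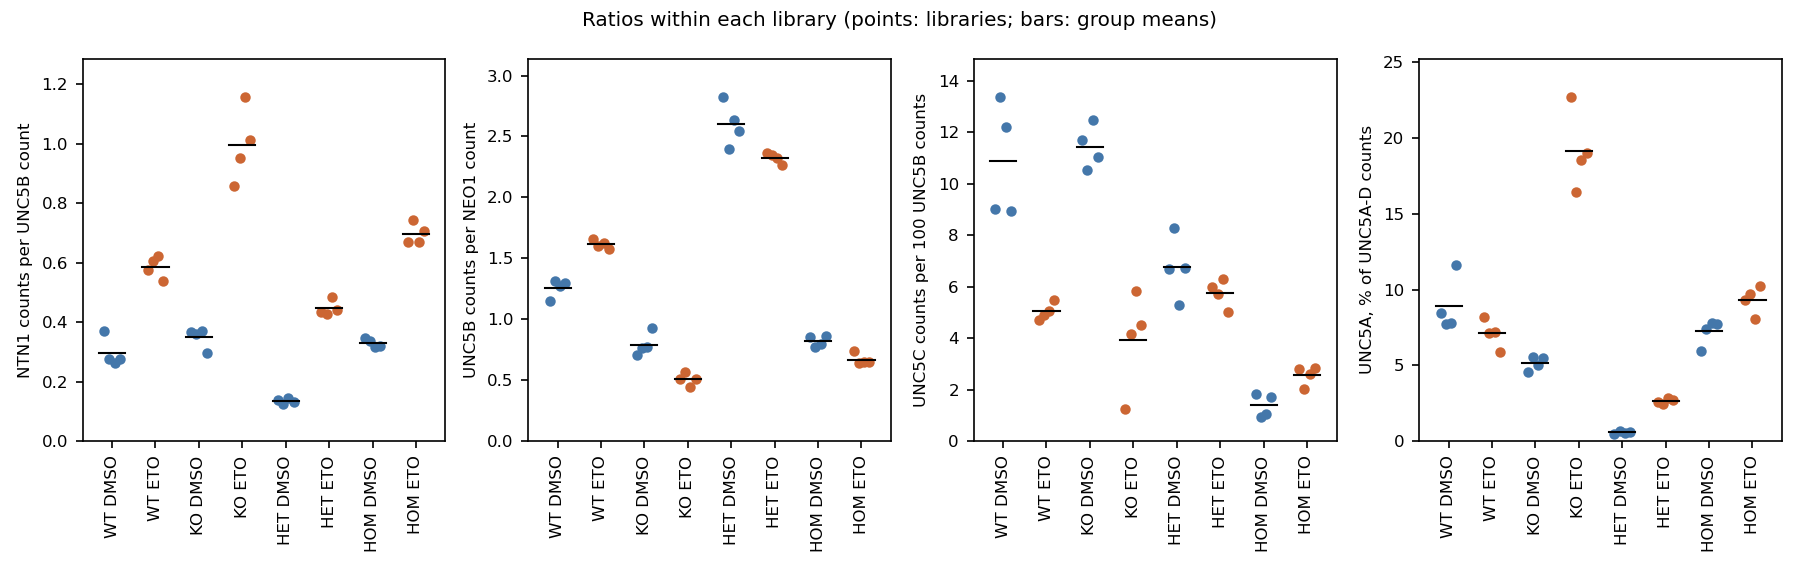
Ratios of counts within each of 32 libraries, 4 per group (blue DMSO, orange etoposide, bars group means): NTN1 per UNC5B, UNC5B per NEO1, UNC5C per 100 UNC5B and the UNC5A share of the UNC5A to UNC5D sum. For the share alone, counts were divided by transcript length. NTN1 per UNC5B is higher with etoposide in all 4 genotypes, with KO highest at 0.858 to 1.16.

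The authors' deposited tables cover KO and HOM against WT and HOM against KO. For UNC5C in HOM against WT, the authors' deposited table gives a log2 fold change of -2.85 ± 0.221 (SE) with DMSO and -1.99 ± 0.220 with etoposide. For UNC5B in KO against WT with etoposide, the authors' deposited table gives -1.87 ± 0.132. The authors' deposited table for KO against WT with DMSO also holds NTN1 (-0.48), NTN4 (-0.63) and UNC5C (-0.61) at an adjusted p under 0.05. The NTN4 and UNC5C values exceed 1.5-fold and that of NTN1 does not. These genes did not pass here. In limma's test NTN1 missed only the 1.5-fold limit (adjusted p = 0.0435), while NTN4 (adjusted p = 0.0944) and UNC5C (adjusted p = 0.18) missed the limit on p. For NTN4 in HOM against WT with etoposide, the authors' deposited table gives -0.56 with an adjusted p of 0.011. DCC in HOM against KO with DMSO stands in the authors' deposited table at 0.62 ± 0.213 (SE), over 1.5-fold, with an adjusted p of 0.00799. In limma's test that DCC difference, 0.58 ± 0.19, was under 1.5-fold.

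Beyond the members, 6 lists of related genes were counted, with the medians of all genes at 0.05 in WT, 0.05 in KO, 0.01 in HET and 0.16 in HOM on the log2 scale and their shares called as given above. Of 10 tested other netrins and netrin-like ligands, 3 rose and 0 fell (median 0.30) with etoposide in WT, 1 rose and 3 fell (median -0.23) in KO, 3 rose and 0 fell (median 0.43) in HET and 3 rose and 4 fell (median -0.40) in HOM. DRAXIN, a secreted netrin-1 binding guidance protein, rose with a log2 change of 0.84 ± 0.11 (SE) in WT and 1.30 ± 0.11 in HET. RGMA, a neogenin ligand, fell with -2.08 ± 0.16 in KO and -2.25 ± 0.16 in HOM, the latter -1.72 ± 0.20 without the 3 libraries. Of 18 tested other receptors and co-receptors, 3 rose and 4 fell (median -0.18) in WT, 2 rose and 10 fell (median -0.65) in KO, 5 rose and 5 fell (median -0.16) in HET and 3 rose and 5 fell (median -0.24) in HOM. ADGRL3, a latrophilin that binds UNC5 proteins together with FLRTs, fell in all 4 genotypes with either library scaling and in HOM also without the 3 libraries, with -2.05 ± 0.20 in WT and -3.39 ± 0.20 in KO. ITGA6, a laminin-receptor subunit, rose with 1.28 ± 0.20 in WT, 1.29 ± 0.20 in HET and 1.51 ± 0.20 in HOM, the last 0.76 ± 0.16 without the 3 libraries.

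Of the 25 genes that carry DCC and UNC5 signals inside the cell, 0 rose and 7 fell (median -0.26) in WT, 0 rose and 9 fell (median -0.40) in KO, 1 rose and 8 fell (median -0.32) in HET and 4 rose and 14 fell (median -0.73) in HOM. PRKCA, a protein kinase C that acts on UNC5A surface levels, fell in all 4 genotypes with either scaling and in HOM also without the 3 libraries, with -2.23 ± 0.09 in WT and -2.98 ± 0.09 in KO. TRIO, a guanine nucleotide exchange factor downstream of DCC, fell with -2.04 ± 0.10 in KO and -2.20 ± 0.10 in HOM, the latter -2.20 ± 0.15 without the 3 libraries. Of 14 genes linked to death signalling by unbound dependence receptors, 3 rose and 3 fell (median -0.004) in WT, 5 rose and 2 fell (median 0.39) in KO, 2 rose and 2 fell (median 0.03) in HET and 8 rose and 3 fell (median 0.83) in HOM. DAPK1, a kinase of UNC5B death signalling, rose with 4.37 ± 0.35 in WT and 3.58 ± 0.35 in HET, and its KO response differed from that of WT by -2.87 ± 0.50 (SE; adjusted p = 9.77e-05).

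Among 14 tested other dependence receptors, 6 rose and 3 fell (median 0.02) in WT, 4 rose and 4 fell (median -0.36) in KO, 6 rose and 2 fell (median 0.26) in HET and 4 rose and 5 fell (median -0.06) in HOM. NGFR, the p75 neurotrophin receptor, rose in all 4 genotypes with either scaling and in HOM also without the 3 libraries, with 2.43 ± 0.10 in WT and 1.28 ± 0.10 in KO. PTCH1, the hedgehog receptor, fell likewise in all 4, with -1.72 ± 0.11 in WT and -1.70 ± 0.11 in KO. Of the 7 SLIT and ROBO genes, 1 rose and 0 fell (median 0.001) in WT, 1 rose and 3 fell (median 0.08) in KO, 1 rose and 0 fell (median 0.35) in HET and 0 rose and 2 fell (median 0.08) in HOM. ROBO4, an endothelial guidance receptor, rose with 2.14 ± 0.25 in WT and 3.76 ± 0.25 in HET. SLIT2, a secreted repellent, fell with -0.70 ± 0.12 in KO, or -0.40 ± 0.18 with total-count scaling, which did not pass. The summed level of the 4 endothelial markers was 106 to 378 normalized counts per library, with none at 0 in every library; their part in these results was not tested.

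In HOM the list counts moved with the libraries and the scaling. Without HOM DMSO libraries 2 to 4, 2 rose and 2 fell (median -0.20) among the netrins, 3 rose and 9 fell (median -0.47) among receptors, 1 rose and 11 fell (median -0.51) among signalling genes, 4 rose and 2 fell (median 0.17) among death-signalling genes, 3 rose and 3 fell (median 0.01) among dependence receptors and 1 rose and 1 fell (median -0.17) among SLIT and ROBO genes. With total-count scaling, where the median of all genes in HOM was 1.13, the medians of the 6 lists in the same order were 0.57, 0.77, 0.28, 1.84, 0.95 and 0.96, and 10 rose and 2 fell among receptors and 9 rose and 2 fell among signalling genes.

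The genes closest in pattern to 7 of the members were found by Pearson correlation over the 8 group means among 13686 genes, points that share the scaling of the libraries. MAMDC4 (r = 0.966) was closest to NTN1, CSTA (0.976) to NTN4, USP31 (0.965) to UNC5A, ABHD2 (0.988) to UNC5B, FRYL (0.996) to UNC5C, TUFMP1 (0.930) to UNC5D and NYNRIN (0.992) to NEO1. Among members, UNC5C and UNC5D (0.899) and UNC5B and DCC (0.890) were most alike, and NTN4 and NEO1 least (-0.361).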

How the data were processed

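Poly-A RNA of U2OS cells was sequenced in 32 libraries. Per the submitters' processing notes, the authors used kallisto and DESeq2, with genome build GRCh38 (hg38); tool versions are not given in the sources used here. Values in the deposited matrix were variance-stabilized on a log2-like scale, with a floor of 4.43. The authors' deposited result tables held a mean signal, log2 fold changes, a test statistic (a score), p-values and adjusted p-values. Inverting the matrix gave normalized counts with gene means equal to the deposited mean signal to a relative 4.47e-14. Counts recovered by removing size factors were whole within 0.01 in 100% of values. A gene with 3 counts, the floor for counting error, had 2.30 to 6.37 normalized counts. No replicate pair was a duplicate (chi-square per degree of freedom 1.89 to 254).

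A gene was tested if 4 or more libraries reached 10 normalized counts; these 16824 genes were fitted with limma 3.58.1 (R 4.3.3), with trend, on log2(normalized count + 1), 1 mean per group, two-sided, over 16 contrasts, each adjusted by Benjamini-Hochberg. The procedure was tested on simulated data. Alternatives were a pseudocount of 5, no filter or one of 50, the deposited scale, total-count and quantile scaling, voom, array weights, the compared groups alone, a replicate block, and leaving out libraries. Positions and lengths came from GENCODE 29. All 8 members are reported; from each list at most 2 called genes with the largest rise and 2 with the largest fall and a group mean of at least 50 were named, and the nearest genes by pattern. The members and lists were chosen with earlier results of these data known. The antisense gene UNC5B-AS1 and MCAM were not analysed here, and some results are not reported here.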

Additional observations from a re-analysis of the deposited data

Results flagged for a closer look

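In 5 of the 64 sets of 4 libraries checked (8 genes in 8 groups), 1 library lay far from the other 3 by Dixon's criterion, which chance gives in about 1 of 20 sets. These were the highest NTN1 library in HOM with etoposide (677 normalized counts), the lowest UNC5B library in HET with DMSO (2463), the highest UNC5C library in WT with DMSO (296), the lowest UNC5C library in KO with etoposide (5.53) and the lowest NEO1 library in HOM with DMSO (2282), which is the library that did not stand apart in its mitochondrial share.

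Responses to etoposide differed between genotypes by the test of the difference itself in 11 cases (log2 scale). Against WT, the response of NTN1 differed by -0.66 in KO and -1.08 in HOM, that of UNC5A by 1.25 in KO and 1.99 in HET, that of UNC5B by -1.18 in KO and -1.17 in HOM, that of UNC5C by -1.74 in KO and that of UNC5D by -1.22 in KO. Between HOM and KO, the responses differed by -1.58 for UNC5A, 2.61 for UNC5C and 1.67 for UNC5D. Of all genes, 15.2% passed for KO, 4.75% for HET and 50.2% for HOM against WT, and 43.7% for HOM against KO. The KO calls of UNC5D and NTN1 changed in 15 and 6 of 26 alternatives. With total-count scaling the HOM differences from WT were -0.30 for NTN1 and -0.38 for UNC5B, and neither passed. Without HOM DMSO libraries 2 to 4, the HOM differences from KO were -1.02 for UNC5A, 2.44 for UNC5C and 0.96 for UNC5D.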

How the results depend on the processing

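Of 56 calls among 128 member and contrast pairs, 28 held under every alternative run for them. There were 43 alternatives in all and 18 to 27 per pair, since single libraries were left out only of the contrasts they enter. The number of members called out of 8 moved by over 1.5 times as follows. On the deposited scale it was 1 each for HET against WT with DMSO (2 in the reported fit), HET against WT with etoposide (2) and HOM against KO with etoposide (2). With total-count scaling it was 3 for the WT response (5), 2 for the HOM response (4), 3 for HOM against KO with DMSO (7), 1 for HET against WT (2) and 2 for HOM against WT (4) with etoposide, and 3 for KO (5) and 2 for HET (1) in the difference from the WT response. The HET difference was also 2 with quantile scaling and with array weights; the HOM difference from the WT response (2) was 4 with quantile scaling and voom and 5 with array weights. Without HOM DMSO libraries 2 to 4 it was 3 for HOM against KO with DMSO and 1 for the HOM difference from the KO response (3). Total-count scaling reversed the HOM responses of UNC5C (0.36) and UNC5D (0.91), and also turned those of NTN1 (0.52) and DCC (0.46), which passed with neither scaling; the scaling lowers the 3 libraries with large normalized sums by construction.

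Leaving out 1 library at a time, members called ranged from 4 to 5 for the responses of WT, KO and HET and 3 to 5 for HOM. With DMSO they ranged from 2 to 4 for KO, 1 to 2 for HET and 3 to 3 for HOM against WT and 6 to 8 for HOM against KO. With etoposide the ranges were 5 to 5, 1 to 2, 3 to 4 and 1 to 2 in that order. For differences between responses they were 3 to 5 for KO, 1 to 2 for HET and 2 to 4 for HOM against WT, and 3 to 3 for HOM against KO.

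The replicate block changed 0 member calls and moved the count over all genes by 0.999 to 1.03 times. Replicate numbers were not taken as pairs: same-numbered DMSO and etoposide libraries had residual correlations of -0.0691 to 0.364, over 0.1 in 4 of 16 pairs, and correlated best with their own number in 4 of 16 cases. Over all genes, counts moved by over 1.5 times for KO against WT with DMSO (879 on the deposited scale, 1404 reported) and for the HET difference from the WT response (1730 with array weights and 1200 with the compared groups alone, 799 reported). With the compared groups alone and without the 3 HOM libraries, they were 1159 and 764 for HOM against WT with DMSO (8012 reported) and 4840 and 1457 for HOM against KO (8609). For HOM against KO responses they were 4691 and 311, and 4780 with quantile scaling (7344). Without the 3 libraries they were 6431 for the HOM response (11044) and 3104 for HOM against WT responses (8438). A precision limit is the low depth of UNC5D, DCC and, in HET with DMSO, UNC5A. It holds also for UNC5C in KO with etoposide (6 to 28 recovered counts) and in HOM (15 to 34 with DMSO and 18 to 32 with etoposide).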

Other observations

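Genes within 1 Mb of a member were read after the members' values were seen. Those around UNC5A are given, and those around the other members are not. Around UNC5A, 40 genes were tested, of which 0 were higher and 11 lower in HET than in WT with DMSO (median log2 difference -0.15). Of all 16824 genes, 2710 were higher and 2759 lower in that comparison. SNCB, which encodes beta-synuclein, was among the 11 lower neighbours at -2.01 ± 0.25 (SE), and UIMC1, the nearest tested neighbour, was at 0.11 ± 0.15. With etoposide, 1 of these 40 genes was higher and 2 were lower in HET than in WT, against 1692 higher and 2220 lower of all genes. For KO against WT with DMSO, 0 of the 40 were higher and 1 lower (463 and 941 of all genes). For HOM against WT with DMSO, 19 were higher and 5 lower (3371 and 4641 of all genes). A regional cause was not tested.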
